A study of Homo sapiens with 2 samples.

Results

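In the human hepatocellular carcinoma line HepG2, 49 short stretches of the genome held clusters of T-to-C sites outside chromosome M and 8 left-out regions. They lay scattered over 19 of the 24 nuclear chromosomes. These loci held 282 of the 5981 sites in the deposited list (4.71%, 95% Wilson interval 4.21 to 5.28%). They were chosen by position: the middle bases of sites on either strand were chained where at most 1000 nt apart, and chains of at least 4 sites were kept. Sites on chromosome M and clusters in 8 regions, which resemble ribosomal or mitochondrial RNA, were left out, which removed 13 clusters with 279 sites. Whether the 49 loci themselves hold such sequence was not tested. Over the whole list the same chaining gave 4955 loci, 4408 of them a lone site outside the left-out regions.

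All data came from a single group, HA-METTL14, with 2 libraries (replicates 1 and 2) of HepG2 cells that stably carried METTL14 from a lentiviral vector, with an HA tag at its N-terminus and EGFP at its C-terminus. Puromycin selection and a sort for cells with high GFP preceded the assay, so both libraries describe overexpressed, tagged METTL14. Both libraries received 200 µM 4-thiouridine for 16 h and were irradiated 3 times at 365 nm with 0.15 J/cm2. Sites carry a joint value for the pair of libraries, so replicate error could not be given, and no untagged or input library was analysed here.

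METTL14 is the RNA-binding partner of METTL3, and the pair writes N6-methyladenosine into RNA as it is made, with a preference for the core GGAC. In PAR-CLIP, 4-thiouridine in RNA is crosslinked to a bound protein, and the reverse transcriptase then reads it as C, so a T-to-C site is read as a crosslinked uridine and carries the strand of its RNA. RNase T1 cuts RNA after G, so the recovered fragments are short and end at G. A fragment can carry several converted uridines, and sites a few nt apart can come from the same fragments.

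Each site has a deposited score, the authors' own whole number of at least 3, for which the sources used here give no unit. It is used below to describe and rank sites within this list. Because the rule counts listed sites, and the list starts at a score of 3, a place with high scores had more chance of reaching 4 sites. Differences in score between these loci and other sites are therefore descriptions and were not tested. The sequence and the genes at the loci were not analysed here, since the sites are on hg19 and the annotation at hand is on GRCh38. Positions below are 1-based on hg19, and distances along a locus are counted from 0 at its first site in the direction of its strand.

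Most of the 49 loci were small. The count of sites was 4 in 23 loci, 5 in 7, 6 in 4 and 7 in 6, and the other 9 held 8 to 13. The span from first to last site had a median of 253 nt (exact binomial interval 192 to 461 nt) and ran from 5 to 1612 nt. No span fell between 540 and 616 nt, and 600 nt was taken as the border between 36 compact loci with 220 sites and 13 long loci with 62 sites. This border was set after the spans had been seen. Chromosome 2 held 6 of the loci, 5 of them long, and chromosome 8 held 5, all compact. Chromosomes 13, 15, 21, 22 and Y held none outside the left-out regions.

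**Figure D1:**
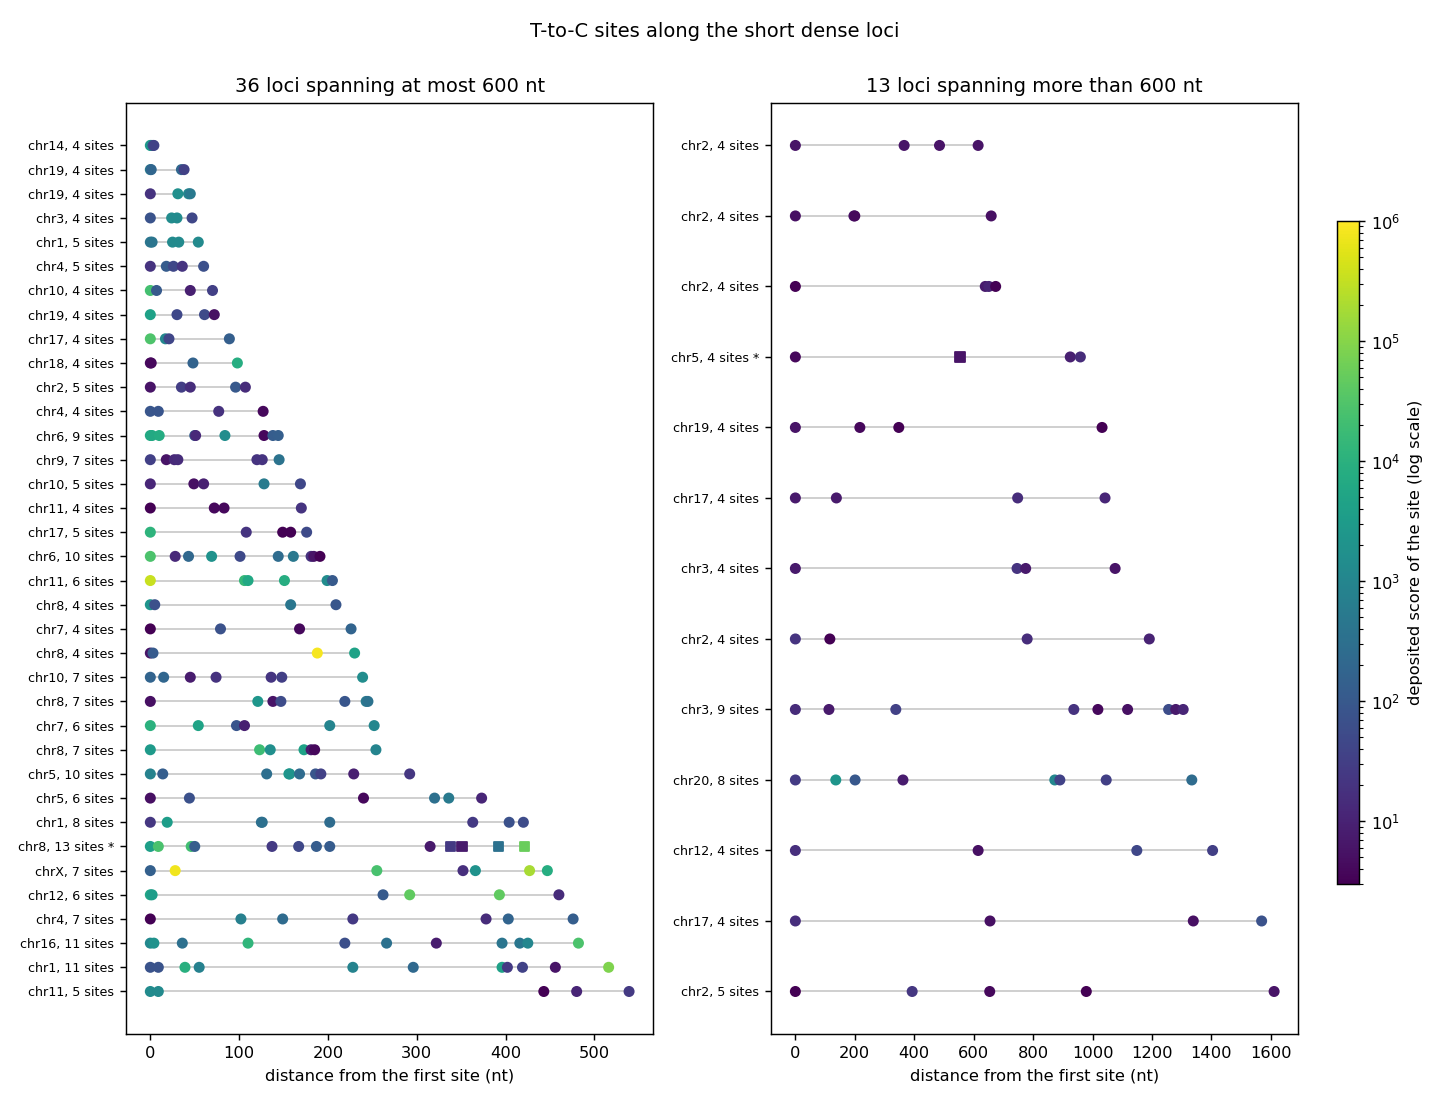
Every site of the 49 loci by its distance from the first site of the locus (x axis, nt), 1 row per locus, coloured by its deposited score on a log scale; loci on 1 strand run in the direction of the strand, and in the 2 marked with an asterisk, which run from the lower coordinate, circles are minus and squares plus sites. The compact loci on the left reach scores above 100000, while in the long loci on the right all sites are at 73 or below except 4 sites of the chromosome 20 locus, with 95, 255, 1101 and 2298.

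Compact and long loci differed in score as well as in span. The highest score of a locus had a median of 3185.5 (1304 to 11426) among the 36 compact loci and of 20 (6 to 58) among the 13 long ones. A site with a score of at least 100 was present in 34 of 36 compact loci (94.4%, 81.9 to 98.5%) and in 1 of 13 long loci (7.69%, 1.37 to 33.3%). A score of at least 1000 was reached in 26 compact loci and 1 long locus, and a score of at least 10000 in 12 compact loci. Over all 49 loci the highest score and the span had a Spearman's rho of -0.37, and the highest score and the number of sites one of 0.48, both as descriptions.

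**Figure D2:**
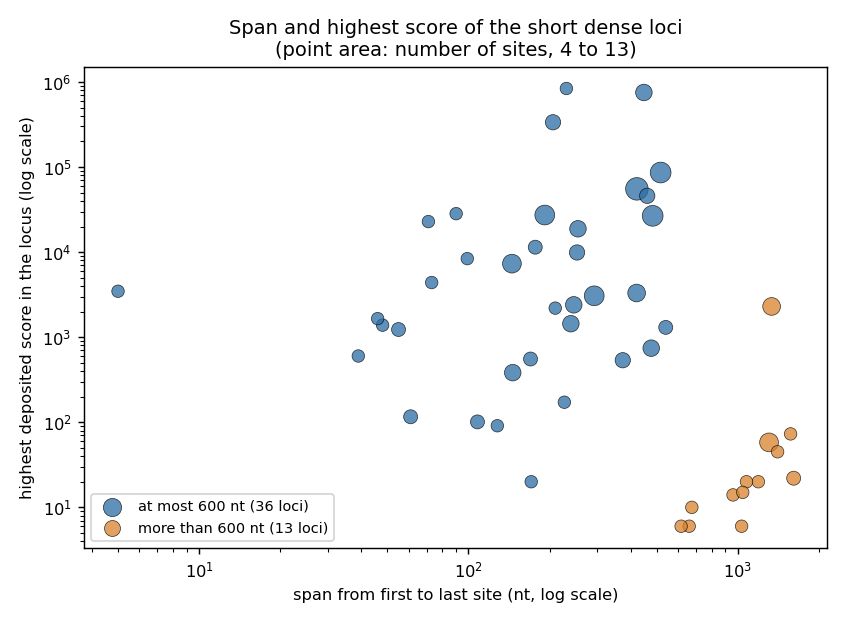
Span of each locus from first to last site (x axis, nt, log scale) against its highest deposited score (y axis, log scale); each point is 1 locus and its area follows the number of sites. The 13 long loci lie at or below 73 except 1 at 2298, and 34 of the 36 compact loci lie above 100.

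Set beside the rest of the list, the member sites had a median score of 56.5 (35 to 91) against 5 (5 to 5) for the 5699 other sites. The lowest score, 3, was found at 14 of the 282 member sites (4.96%) and at 1529 of the others (26.8%). Scores of at least 100 made up 43.3% (37.6 to 49.1%) of the member sites and 8.16% (7.48 to 8.90%) of the others. Of the 63 sites in the list with a score of at least 10000, 19 lay in these loci. The highest score of the list, 1855548, lay among the others. The others include the 279 sites of the left-out clusters, for which no separate scores are given. The intervals treat sites as independent, which sites of 1 locus are not.

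Just inside the limit of the rule, the 23 loci of exactly 4 sites had a median highest score of 91 and a median span of 227 nt. Just outside it, the 45 loci of exactly 3 sites had a median highest score of 31 and a median span of 208 nt. The share of loci with a score of at least 100 was 40% (27.0 to 54.5%) of the 45 loci of 3 sites, 15.5% (12.4 to 19.2%) of the 432 loci of 2 sites and 4.22% (3.66 to 4.85%) of the 4408 lone sites. By this measure the long loci, with 7.69%, sat beside the loci of fewer sites and the compact loci stood above all of them.

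**Figure D3:**
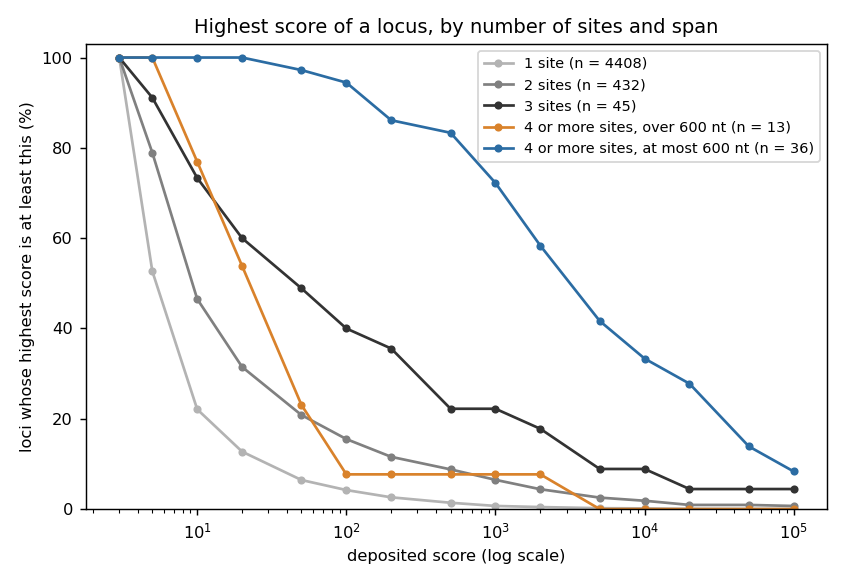
Share of loci (y axis, %) whose highest site reaches a given deposited score (x axis, log scale), for loci of 1, 2 and 3 sites and for the long and compact loci of 4 or more sites. At a score of 1000 the curve of the compact loci is at 72.2% and that of the loci of 3 sites at 22.2%.

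The summed score was held by very few loci. The 49 loci together had 33.5% of the summed score of the whole list. Of the summed score of the 49, the chromosome X locus held 35.3%, the first 2 loci 65.8%, the first 3 loci 79.1% and the first 10 loci 95.1%.

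The chromosome X locus, from 108297347 to 108297794 on the plus strand, held 7 sites. Its scores in order were 140 at its first site, 752110 at 28 nt, 24389 at 255 nt, 17 at 352 nt, 1988 at 366 nt, 185481 at 427 nt and 8081 at 447 nt. The 2 highest scores thus stood near opposite ends of the locus.

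Second by summed score was a chromosome 8 locus on the minus strand, from 70602299 to 70602529, with 4 sites. It had scores of 6 at its first site and 108 at 3 nt, then 837918 at 188 nt and 4636 at 230 nt. A single position thus held 99.4% of its summed score.

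The third, on chromosome 11 from 85195075 to 85195280 on the plus strand, held 6 sites. Its first site had a score of 335936, and the next were 15302 at 106 nt, 6166 at 110 nt, 8488 at 151 nt, 1365 at 199 nt and 104 at 205 nt. Here the score was highest at the first site of the locus and lowest at the last.

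Of the 10 loci with most sites, 8 were compact. First by number was a chromosome 8 locus from 69218475 to 69218896 with 13 sites on both strands. Counted from its lower coordinate, the 9 minus sites came first, with scores of 3664 at the first site, 25352 at 9 nt, 20898 at 46 nt and 120 at 50 nt. The other 5 minus sites, from 137 to 315 nt, lay between 7 and 122. The 4 plus sites followed, with scores of 25 at 338 nt, 7 at 351 nt, 340 at 392 nt and 55403 at 421 nt. No plus site lay among the minus sites, the strands met between 315 and 338 nt, and the highest score of each strand lay near an outer end of the locus.

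On chromosome 16, from 47538725 to 47539207 on the plus strand, 11 sites were spread over 483 nt. Scores were 1162 at the first site, 1989 at 4 nt, 319 at 36 nt, 12613 at 110 nt, 65 at 219 nt, 339 at 266 nt and 8 at 322 nt. The last 4 sites had 419 at 396 nt, 451 at 416 nt, 1005 at 425 nt and 26698 at 482 nt. The highest score was at the last site and the second highest at 110 nt.

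Another locus of 11 sites lay on the minus strand of chromosome 1, from 108113097 to 108113613. Its last site, at 516 nt, had a score of 86210, or 84.6% of the summed score. Next in rank were 9245 at 39 nt and 4373 at 396 nt, and the other 8 sites lay between 6 and 894.

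Of the 2 loci with 10 sites, that on chromosome 6 from 133593968 on the plus strand began with its highest score, 27285, which was 90.1% of the total. Scores then ran through 13 at 28 nt, 205 at 43 nt, 1976 at 69 nt, 50 at the next site, 250 at 144 nt and 486 at 161 nt to 18, 6 and 3 at 181, 184 and 191 nt. The other, on chromosome 5 from 122990646 on the plus strand, peaked at neighbouring bases in its middle, with 3065 at 156 nt and 2204 at 157 nt. Its first site had 811, and the other 7 sites lay between 9 and 292. So the peak of a locus could lie at its start, its end or its middle.

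A second chromosome 6 locus, from 144692102 to 144692246 on the minus strand, held 9 sites in 145 nt. Its first 3 sites had near-equal scores, 6303 at the first, 6423 at 2 nt and 7319 at 10 nt. A further site at 84 nt had 1474, and the other 5 lay between 4 and 135.

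The chromosome 1 locus from 237766336 on the plus strand held 8 sites. Its score was 3306 at 19 nt, 291 and 318 at the adjoining bases at 125 and 126 nt, and 252 at 202 nt, with the other 4 sites between 22 and 72. A chromosome 12 locus from 127650471 on the minus strand held 6 sites, and its summed score of 99276 was shared almost evenly by 2 positions, 44130 at 292 nt and 45875 at 393 nt. That pair differed less in score than the 2 highest sites of most compact loci.

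The score of a compact locus was commonly concentrated at a single base. The highest site held a median of 64.9% (57.1 to 78.2%) of the summed score in the 36 compact loci and 42.4% (36.3 to 57.9%) in the 13 long loci. It held at least 90% in 8 loci, all of them compact. In the 13 long loci, most of which have 4 sites, low scores also limit how unequal the sites can be.

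The 3 loci with a share of at least 99% were that of chromosome 8 from 70602299, one on chromosome 10 and one on chromosome 17. At the chromosome 10 locus, from 68805236 on the minus strand, the scores were 22847 at the first site, then 106 at 7 nt, 9 at 45 nt and 33 at 70 nt. At the chromosome 17 locus, from 75158161 on the minus strand, they were 11426 at the first site, then 20 at 108 nt, 3 at 149 nt, 3 at 158 nt and 51 at 176 nt. Without their highest site these loci would each have summed to less than 1% of what they did.

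Concentration was nearly as strong at 3 loci of 4 sites in under 100 nt. On chromosome 18, from 77772845 on the plus strand, the scores were 4 at both the first base and the next one, 163 at 48 nt and 8385 at 98 nt. On chromosome 19, from 54158310 on the minus strand, they were 4390 at the first site, 48 at 30 nt, 52 at 61 nt and 5 at 72 nt. A second chromosome 17 locus, from 55868635 on the minus strand, had 28312 at the first site, 1057 at 17 nt, 43 at 21 nt and 132 at 89 nt.

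In other compact loci the highest sites had near-equal scores. The most even compact locus was on chromosome 1 from 16993295 to 16993349 on the minus strand. It had scores of 427 and 412 at the first site and 2 nt, then 1226, 1227 and 1231 at 25, 32 and 54 nt. Its scores thus fell into 2 levels, with near-equal values within each. On chromosome 3 from 179497417 on the plus strand, scores were 1385 at 24 nt and 1312 at 30 nt, between outer sites of 76 and 45.

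The shortest locus, on chromosome 14 from 20811227 to 20811231 on the minus strand, packed 4 sites into 5 nt. Its scores fell from 3468 at the first site and 2370 at the next base to 88 at 3 nt and 36 at 4 nt. Next in length were 2 loci on the minus strand of chromosome 19. One, from 22877620, spanned 39 nt with scores of 601 at the first site, 191 at 1 nt, 214 at 35 nt and 35 at 38 nt. The other, from 55390048, spanned 46 nt with 19 at the first site, 1653 at 31 nt, 1159 at 43 nt and 515 at 45 nt. All sites of these 3 loci lay within 46 nt of one another.

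The other compact loci filled the range between these forms. Chromosome 8 had 3 more of them. That from 56755069 on the minus strand held 7 sites, with 18795 at 123 nt, 4547 at 173 nt, 2886 at its first site, 1594 at 135 nt and 928 at its last, and with 7 and 4 at 181 and 185 nt between them. That from 46951843, also minus, held 7 sites with 2401 at 121 nt, 568 at 243 nt, 357 at 245 nt and 5 to 90 elsewhere. The third, from 21455996 on the plus strand, had 2196, 67, 448 and 92 at 0, 5, 158 and 209 nt. Each of the 3 had 1 leading site, with 65.3 to 78.3% of the summed score.

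Both chromosome 7 loci lay on the plus strand and differed in level. From 68527413, scores were 9902 at the first site, 4774 at 54 nt, 84 at 97 nt, 9 at 106 nt, 945 at 202 nt and 1060 at 252 nt. From 80962921, they were 3, 73, 4 and 172 at 0, 79, 168 and 226 nt. In both, sites of low score lay between higher ones.

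Chromosome 10 held 2 further loci on the minus strand with a single high site. From 50911143, 7 sites included 1441 at the last, 170 and 186 at the first site and 15 nt, and 8 to 31 at the other 4. From 103124606, the 5 scores were 12, 5, 9, 554 and 46, the highest at 128 nt. A chromosome 11 locus from 111692160 on the minus strand began with a near-equal pair, 1304 at its first site and 1249 at 9 nt. Its other 3 sites, with 3, 11 and 26, lay from 443 nt on, after the widest gap of any compact locus, 434 nt.

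Chromosome 4 held 3 compact loci, none with a score above 743. From 76807185 on the plus strand, 7 sites had 3, 743, 240, 25, 14, 171 and 128 over 477 nt. From 120158566 on the plus strand, 5 sites within 61 nt had 19, 116, 44, 20 and 66, and from 86968257 on the minus strand 4 sites had 91, 84, 18 and 4. Most scores were also low on chromosome 2 from 78928875 on the plus strand, where 4 of the 5 sites had 6, 30, 15 and 14, while the chromosome 5 locus from 174541783 on the minus strand reached 536 at 336 nt beside 312 at 320 nt. The pair on chromosome 5 lay 16 nt apart, and its other 4 sites had 4 to 70.

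**Figure D4:**
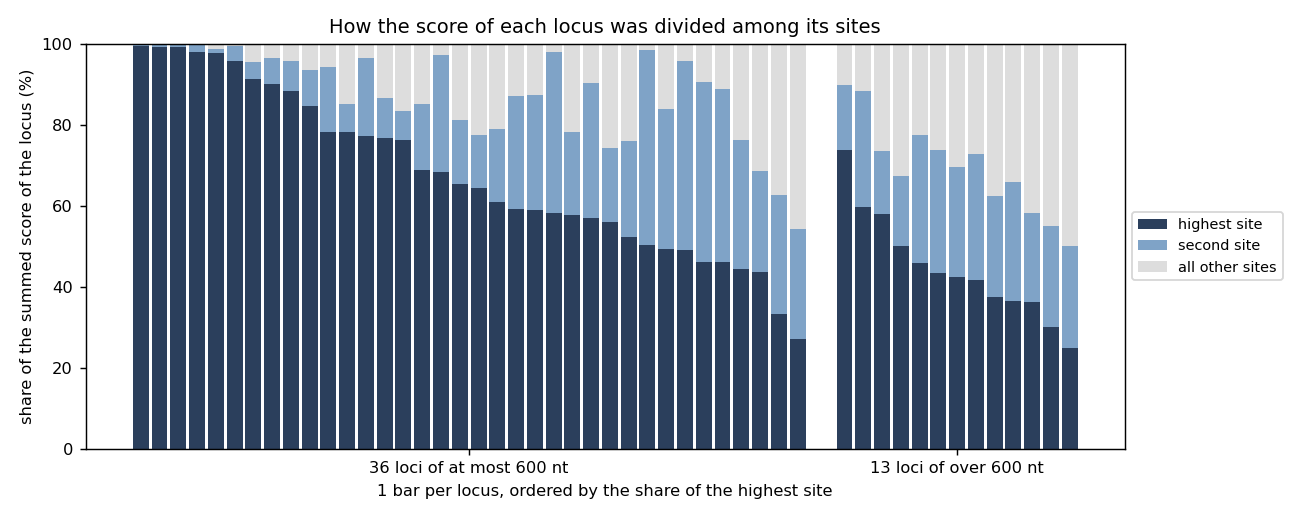
Share of the summed score of each locus (y axis, %) held by its highest site, its second site and all other sites, 1 bar per locus, with the 36 compact loci on the left and the 13 long loci on the right. The highest site holds between 27.2% and 99.4% in compact loci and between 25% and 73.7% in long loci.

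The place of the highest site within its locus varied. In 1 long locus, on chromosome 2 from 235950207, all sites were tied, and it was left out here. The highest site lay at an end in 25 of 48 loci (52.1%, 38.3 to 65.5%), while the 2 end sites made up a mean of 39.0% of the sites of a locus, a value inside that interval. Among the 46 of these loci on 1 strand, the highest site was the first in the direction of the strand in 14, the last in 9 and an inner one in 23. A place at an end was seen in 21 of 36 compact and 4 of 12 long loci.

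Similarity of score between neighbouring sites on the same strand did not fall steadily with distance. In the 63 neighbouring pairs 1 to 15 nt apart, the higher score was a median of 2.20 times the lower (1.59 to 3.15), and 23 pairs (36.5%, 25.7 to 48.9%) were within 1.5 times. In the 41 pairs 16 to 30 nt apart the median ratio was 9.64 (3.30 to 23.0), and 4 pairs (9.76%) were within 1.5 times. For 71 pairs 31 to 100 nt apart it was 6.24 (4.67 to 24.2), with 11 pairs (15.5%) within 1.5 times. Pairs beyond 100 nt, many from the low-scoring long loci, were close to the nearest pairs, with a median of 3.30 (2.00 to 7.33) and 18 of 56 (32.1%, 21.4 to 45.2%) within 1.5 times. With only pairs in which both sites had a score of at least 20, the medians were 1.96, 10.5, 5.00 and 10.1 in the same order of distance, and 17 of 40, 4 of 27, 7 of 33 and 4 of 17 pairs were within 1.5 times.

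The closest neighbours were compared with those in loci of 2 or 3 sites. With the same minimum score of 20, their median ratio was 1.19 (1.01 to 1.43) over 49 pairs 1 to 15 nt apart and 2.73 (1.24 to 22.7) over 13 pairs 16 to 30 nt apart. In the members the closest pairs had a median of 1.96 (1.39 to 2.64). The intervals of the closest pairs overlapped narrowly, between 1.39 and 1.43. Without the minimum score, the 183 closest pairs of the smaller loci had a median of 1 (1 to 1.15), against 2.20 (1.59 to 3.15) in the 63 of the members. Those intervals did not overlap, but low scores limit how unequal 2 sites can be. All of these intervals treat pairs as independent, which pairs of 1 locus are not, and the difference was not tested.

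Gaps were short inside the compact loci and wide inside the long ones. Of the 220 sites in compact loci, 156 (70.9%) had another site of the same strand within 30 nt, against 12 of 62 (19.4%) in long loci and 620 of 5699 (10.9%) outside the members. The gap between same-strand neighbours had a median of 29 nt and a maximum of 434 nt in compact loci, and a median of 227.5 nt and a maximum of 925 nt in long loci. A gap over 500 nt between neighbouring sites of either strand was present in 11 of the 13 long loci and in no compact locus. The rule and the border of 600 nt both act on these distances, so they describe the loci.

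Strand was not used by the rule. All sites lay on 1 strand in 47 of 49 loci (95.9%, 86.3 to 98.9%), of which 19 were plus and 28 minus (40.4% plus, 27.6 to 54.7%). The share was 97.8% (88.4 to 99.6%) of the 45 loci of 3 sites and 96.3% (94.1 to 97.7%) of the 432 loci of 2 sites, so sharing a strand did not set these loci apart from smaller ones. Besides the chromosome 8 locus of 13 sites, the exception was a long locus on chromosome 5 from 134363851 to 134364810. Counted from the lower coordinate, it had minus sites with scores of 4 at its start, 9 at 925 nt and 14 at 959 nt, and a plus site with a score of 6 at 555 nt.

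The long loci were mostly of low scores, which were even in some of them. On chromosome 2, a locus from 235950207 on the plus strand had a score of 6 at each of its 4 sites, and one from 20789786 on the minus strand had 5, 6, 4 and 5. A chromosome 19 locus from 18390047 on the minus strand had 6, 4, 3 and 3 over 1033 nt. The longest locus, on chromosome 2 from 130819253 to 130820864 on the minus strand, had 5 sites with scores of 3, 22, 4, 3 and 6. Of these 17 scores, all but 1 were at or below 8, the upper quartile of the lone sites.

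Also among the longest were a chromosome 17 locus from 80194013 on the plus strand, with 16, 5, 5 and 73 over 1570 nt, and a chromosome 12 locus from 6645705 on the plus strand, with 17, 5, 45 and 31 over 1405 nt. Both had their highest score in the downstream part of the locus.

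The remaining long loci of 4 sites had 20, 3, 15 and 10 on chromosome 2 from 96498967 (minus), 3, 7, 10 and 3 on chromosome 2 from 139045627 (minus), 7, 20, 7 and 6 on chromosome 3 from 127788420 (plus) and 7, 7, 15 and 12 on chromosome 17 from 75495092 (plus).

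Only 2 long loci had more than 5 sites. The chromosome 3 locus from 96336040 on the minus strand held 9 sites over 1306 nt with scores from 4 to 58 and a median of 11. The chromosome 20 locus from 26189009 on the minus strand held 8 sites over 1335 nt, with 2298 at 136 nt, 1101 at 873 nt, 255 at its last site and 8 to 95 at the other 5. It was the single long locus with a score of at least 100, and its 2 highest sites lay in different parts of the locus.

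Compact loci seldom had a near neighbour on their strand, a measure that the rule uses only up to 1000 nt. Another site on the same strand within 10 kb of the edge was present for 1 of 36 compact loci (2.78%, 0.492 to 14.2%), 4 of 13 long loci (30.8%, 12.7 to 57.6%), 9 of 45 loci of 3 sites (20%, 10.9 to 33.8%), 24.1% (20.3 to 28.3%) of loci of 2 sites and 16.4% (15.4 to 17.5%) of lone sites. Within 100 kb the shares were 16.7% (7.87 to 31.9%), 46.2% (23.2 to 70.9%), 53.3% (39.1 to 67.1%), 47.5% (42.8 to 52.2%) and 40.6% (39.1 to 42.0%) in the same order. The interval of the compact loci did not overlap that of lone sites at 10, 50 or 100 kb, and it did at 1000 kb. At 10 kb this depended on the border for compact loci, which was set after the spans had been seen. With borders of 300 and 1000 nt the intervals were 0.657 to 18.3% and 1.38 to 16.5%, and both overlapped that of lone sites. With the main border, the interval of the compact loci overlapped that of loci of 3 sites at 10 and 50 kb, and not at 100 kb. At 50 kb the loci of 3 sites had 37.8% (25.1 to 52.4%) against 11.1% (4.41 to 25.3%). With sites of either strand counted, compact loci had 5.56% (1.54 to 18.1%) within 10 kb and lone sites 19.2% (18.1 to 20.4%), and these intervals overlapped. The median distance to the next same-strand site was 402.6 kb for compact loci, 100.2 kb for long loci and 170.4 kb for lone sites. For all 49 loci together the share within 10 kb was 10.2% (4.44 to 21.8%), which overlapped that of lone sites.

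**Figure D5:**
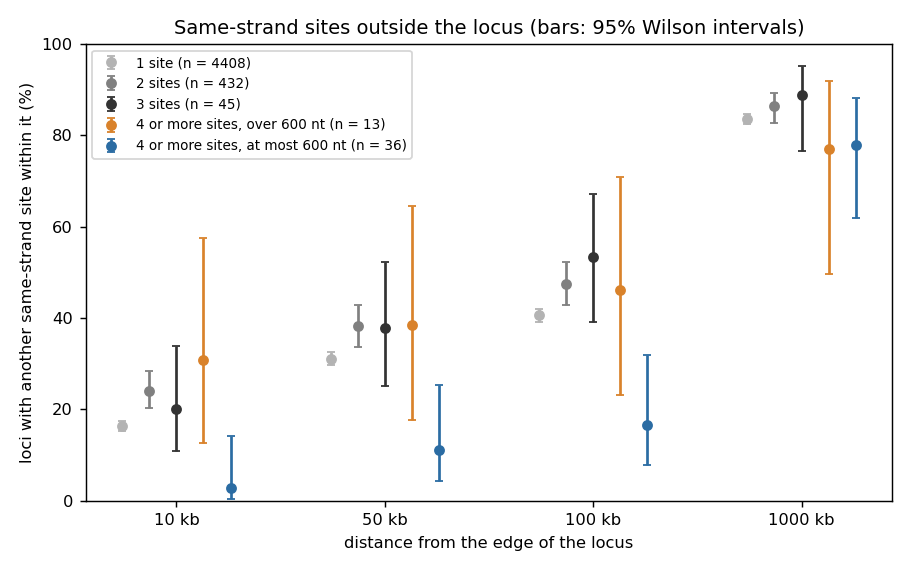
Share of loci (y axis, %) with another same-strand site of the list within 10, 50, 100 or 1000 kb of their edge (x axis), for loci of 1, 2 and 3 sites and for long and compact loci of 4 or more sites; bars are 95% Wilson intervals. Compact loci are lowest at 10, 50 and 100 kb, with 2.78%, 11.1% and 16.7%.

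In the smaller loci the share with a near neighbour differed between score classes. Among loci of 1 to 3 sites, a same-strand site lay within 10 kb for 17.6% (16.5 to 18.7%) of those with a highest score under 100, for 26 of 271 (9.59%, 6.63 to 13.7%) with at least 100, and for 10 of 69 (14.5%, 8.07 to 24.7%) of the latter with at least 1000. Their shares within 100 kb were 41.9% (40.4 to 43.3%), 31.7% (26.5 to 37.5%) and 43.5% (32.4 to 55.2%). The intervals of the classes under 100 and at least 100 did not overlap at either distance. That of the class of at least 1000, a part of the class of at least 100, overlapped both. Of the 34 compact loci with a score of at least 100, 0 had a same-strand site within 10 kb (Wilson interval up to 10.2%), which overlapped the interval of the smaller loci with such scores. At 100 kb these compact loci had 14.7% (6.45 to 30.1%), and the smaller loci an interval of 26.5 to 37.5%, which overlapped too. The part of score in the separation was not tested further. Of the 14 members whose highest score was under 100, 5 had a same-strand site within 10 kb (35.7%, 16.3 to 61.2%).

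Those 5 were named after their values were seen. They were the long loci on chromosome 2 from 96498967, with the next same-strand site at 1.27 kb, from 130819253 at 1.25 kb and from 235950207 at 6.56 kb, the long locus on chromosome 3 from 127788420 at 9.40 kb, and the compact locus on chromosome 11 from 103281167 at 1.32 kb. The last was also the compact locus of lowest score, with 3, 4, 4 and 20 at its sites. So the single compact locus with a same-strand site within 10 kb had scores like those of the long loci. A site of the other strand lay 4672 nt from the compact locus on chromosome 19 from 22877620, whose highest score was 601.

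Whether loci could be copies of 1 sequence was described by the largest number of sites that 2 loci share at a common offset, in both orientations. Of the 1176 pairs of members, 750 shared at most 1 site, 413 shared 2, 12 shared 3 and 1 shared 4. Any 2 loci share at least 1 site at some offset, so counts up to 3 are not read further. The pair with 4 was the chromosome 11 locus from 85195075 and a chromosome 9 locus from 111754705 to 111754850, which lies on the minus strand and has 7 sites. Positions 85195280, 85195274, 85195185 and 85195181 on chromosome 11 matched 111754724, 111754730, 111754819 and 111754823 on chromosome 9, in opposite orientation as their strands are. The scores at these positions were 104, 1365, 6166 and 15302 on chromosome 11 and 20, 20, 14 and 13 on chromosome 9, which is 5.20 to 1177 times higher on chromosome 11. The matched positions lay in close pairs, so they are not separate matches. This was the highest count among 1176 pairs over all offsets, no expected count was worked out, and shared sequence was not tested.

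Against the 13 left-out clusters, 1 of 637 pairs shared 4 sites. It joined the chromosome 16 locus from 47538725 to the left-out ribosomal-RNA-like cluster of 48 sites on the same chromosome, in the same orientation. The scores at the shared positions were 319, 419, 451 and 26698 in the member and 62, 7485, 6553 and 53 in the cluster, so neither place was higher throughout. With 48 sites in the cluster many offsets were available, and shared sequence was not tested. The sources used here do not say how reads that match several places were assigned, so the score of a locus and that of any copy elsewhere cannot be told apart.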

How the data were processed

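PAR-CLIP was done on 2 libraries of HA-METTL14 HepG2 cells. The authors deposited 1 list of T-to-C sites with a score per site over both libraries. FastQC 0.11.5, cutadapt 1.13 and Bowtie 1.1.2 with the genome build hg19 were used, per the submitters' processing notes, and the site names carry rbsSeeker. The sources used here do not give pooling, thresholds, the handling of multi-mapping reads or read depth, so depth is unknown. The middle base of each 201 nt interval was taken as the site. Loci were built with Python 3.11.15 and pandas 2.3.3, and the chaining was tested on simulated positions. With 1 group and 1 value per site no test was run. Shares have 95% Wilson intervals and medians exact binomial (order statistic) intervals of at least 95%, from scipy 1.17.1. Both cover counting only and treat sites or loci as independent. Same-strand distances ran from the edge of a locus, on its more frequent strand. Loci named by rule were the 10 with most sites, the 5 with the highest score, those on both strands, and the 3 longest and shortest; others were added after their values were seen. The members and settings were chosen with earlier results of these data known. GRCh38 annotation was not joined, so planned gene, region, base and GGAC results were not made.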

Additional observations from a re-analysis of the deposited data

How the results depend on the processing

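Of 50 values recomputed, 42 stayed within 1.5 times the reported count or inside the interval given with the main value. The number of loci, 49, became 26 with at least 5 sites a locus and 94 with at least 3, as the limit itself must give. The median score of sites, 56.5, was 93.5 with a chaining distance of 500 nt, 31 with 2000 nt, 109 with at least 5 sites, 31 with at least 3 sites and 106 when scores of 3 and 4 were dropped. The median span, 253 nt, was 517 nt with a chaining distance of 2000 nt. The share of loci on 1 strand ran from 92.5 to 97.6% over 7 alternatives; chaining each strand separately makes it complete by construction and was not counted. The highest site's median share of its locus, 58.2%, ran from 57.1 to 64.9%. Leaving out the 3 loci of highest summed score, and the other borders of 300, 1000 and 2000 nt for compact loci, were chosen after seeing the data. With those borders 3.70% (0.657 to 18.3%), 5% (1.38 to 16.5%) and 10.2% (4.44 to 21.8%) had a same-strand site within 10 kb, against 2.78%. The intervals with these other borders all overlapped that of lone sites, 15.4 to 17.5%, while the interval with the main border, 0.492 to 14.2%, did not. No paired analysis was possible because there is no second group; the list has no value per library, which also prevents leaving out a replicate. The planned region, gene and GGAC alternatives need hg19 sequence and were not run. A place without a listed site is not shown to be unbound, since depth is unknown.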
